A study of Mus musculus with 3 samples.

Results

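The unfolded protein response sensors and factors described here are 9 mouse genes, chosen by their gene name in the deposited expression tables. They are Eif2ak3, Ern1, Atf6, Atf6b, Xbp1, Atf4, Ddit3, Ppp1r15a and Ppp1r15b, out of 23376 gene names in all. All 9 had at least 1 row, and 7 of them reached a mean of 1 FPKM over the 3 libraries, as 12151 gene names did. FPKM is a count of fragments set per kilobase of transcript and per size of library. Eif2ak3 and Xbp1 stayed below that mean.

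The libraries were made from oocytes of ICR mice, which are outbred, and the animals were female and 8 weeks old. A control library came from mice without exposure, another from a low dose of PCB118 and the last from a high dose. PCB118 is a dioxin-like polychlorinated biphenyl. By the title of the series, pregnant mice were exposed and the oocytes were those of their offspring. The labels give neither the amounts nor the number of animals behind a library. Each group had 1 library, so no difference had a replicate check, no p-value is given, and each statement describes these libraries only.

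Secreted and membrane proteins fold in the endoplasmic reticulum, and unfolded proteins there are sensed by PERK (Eif2ak3), IRE1α (Ern1) and ATF6. PERK phosphorylates the initiation factor eIF2, which slows translation in general but favours that of ATF4, and ATF4 in turn switches on Ddit3, which encodes CHOP. IRE1α cuts a short intron out of Xbp1 mRNA in the cytoplasm, and ATF6 is released from the membrane by proteases of the Golgi. The factors then raise chaperones and degradation enzymes, and the subunits GADD34 (Ppp1r15a) and CReP (Ppp1r15b) guide a phosphatase that restores eIF2. Much of this control acts on splicing, cleavage, phosphorylation or translation, none of which an FPKM value shows.

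Sequencing depth was estimated from low values, which clustered at whole multiples of the worth of 1 read. The depths so obtained, rounded to 3 digits, were 34700000 reads in control, 27900000 under low dose and 31500000 under high dose. All 10 oocyte markers examined were above 0 in every library. Their summed level was 7525 FPKM in control, 6227 under low dose and 7363 under high dose, mostly from Dppa3. The 3 markers with a log2 ratio to control of 1 or more in size are named after their values were seen. Gdf9, an oocyte growth factor, was at 661 FPKM in control, 38.5 under low dose and 193 under high dose (log2 ratio -4.06 for the low and -1.77 for the high dose). Its relative Bmp15 was at 4.27 FPKM in control, 18.7 under low dose and 15.8 under high dose (log2 ratio 1.90 for the low and 1.67 for the high dose). Bmp15 had 2 rows. One was at 4.14 FPKM in control, 18.7 under low dose and 7.44 under high dose. The other was at 0.13 FPKM in control, 0 under low dose and 8.34 under high dose. Figla, a transcription factor of the oocyte, was at 95.8 FPKM in control, 73.4 under low dose and 41.8 under high dose (log2 ratio -0.38 for the low and -1.18 for the high dose). The 8 granulosa and cumulus markers with a row summed to 25.1 FPKM in control, 27.8 under low dose and 24.1 under high dose, mostly from Nr5a2 and Fshr. Single markers went different ways, and those given are named after their values were seen. Nr5a2 was at 17.0 FPKM in control, 13.2 under low dose and 10.6 under high dose. Fshr was at 5.61 FPKM in control, 9.95 under low dose and 9.05 under high dose. Inha was at 0.38 FPKM in control, 2.55 under low dose and 1.03 under high dose (log2 ratio 1.36 for the low and 0.56 for the high dose). The 6 markers of theca and stroma summed to 0.41 FPKM in control, 4.18 under low dose and 2.02 under high dose. Among these Col1a1, Col3a1 and Pdgfra were at or near 0 in every library, and Lhcgr was at 0.085 FPKM in control, 3.86 under low dose and 1.61 under high dose. The 3 endothelial markers with a row summed to 3.83 FPKM in control, 6.19 under low dose and 4.80 under high dose, and the 3 blood and immune markers to less than 1 FPKM in each library. The part of these markers in the values below was not tested. In bulk RNA fewer cells of a type and less RNA per cell cannot be told apart.

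Among the 9 genes, Ddit3 and Atf4 differed between libraries by more than 2-fold, and in different libraries. Ddit3 was low in the low dose library and Atf4 in the high dose library. The other 7 genes stayed within 2-fold in all 3 comparisons on the log2(FPKM + 1) scale. The words higher and lower, where counts are given, stand for a log2 ratio of 1 or more in size. This 2-fold rule is no test, and adding 1 FPKM understates the change of low genes.

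**Figure D1:**
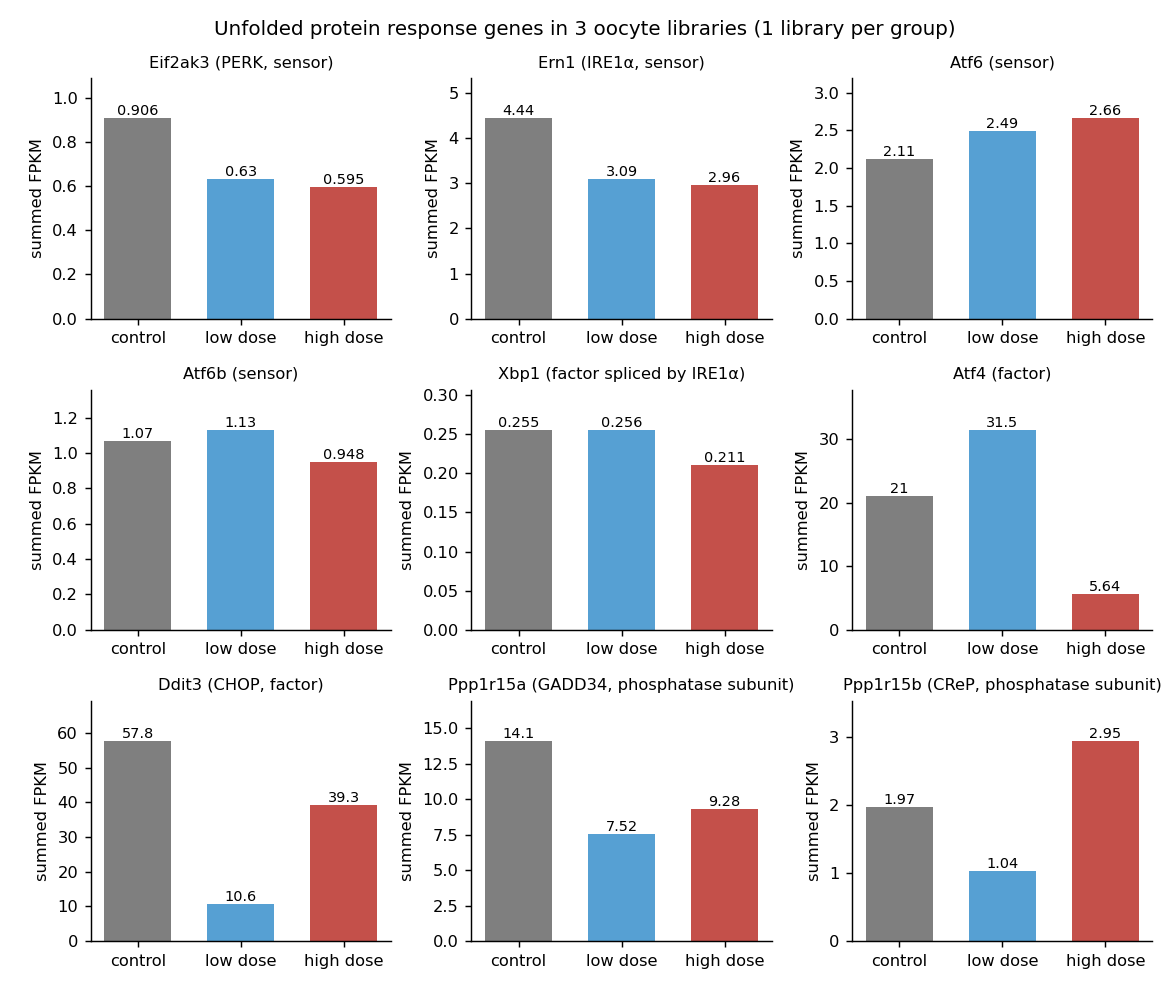
Bars show the summed FPKM of each gene for control, low dose and high dose, with 1 library per group and therefore no error bars, on an axis of its own for each gene that starts at 0. Ddit3 is lowest in the low dose library at 10.6 FPKM, Atf4 is lowest in the high dose library at 5.64 FPKM, and Xbp1 lies below 0.3 FPKM throughout.

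The sensors were modest in level. Ern1 (chromosome 11, 106394650 to 106487852, minus strand, GRCm38) encodes the kinase and endoribonuclease IRE1α. It was at 4.44 FPKM in control, 3.09 under low dose and 2.96 under high dose. Both exposed libraries lay below control, with log2 ratios to control of -0.41 under low dose and -0.46 under high dose. Eif2ak3 (chromosome 6, 70844515 to 70905245, plus strand) encodes PERK, and it was at 0.91 FPKM in control, 0.63 under low dose and 0.60 under high dose. Its log2 ratios to control were -0.23 and -0.26, and neither it nor Ern1 passed the 2-fold rule. The FPKM of Ern1 over that of Eif2ak3 was 4.90 in control, 4.90 under low dose and 4.98 under high dose, so these sensor mRNAs kept their proportion across the 3 libraries. At the estimated depth and with the longest reference transcript, Eif2ak3 rested on about 142 reads in control, 79 under low dose and 85 under high dose, and Ern1 on about 1068 reads in control, 598 under low dose and 648 under high dose.

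Atf6 (chromosome 1, 170704674 to 170867771, minus strand) encodes a membrane-bound transcription factor of the basic leucine zipper class. It was at 2.11 FPKM in control, 2.49 under low dose and 2.66 under high dose, a spread of 1.26-fold between the highest and the lowest library. Atf6b (chromosome 17, 34647146 to 34655074, plus strand), its paralogue, was at 1.07 FPKM in control, 1.13 under low dose and 0.95 under high dose, a spread of 1.19-fold. Both were flat beside Ddit3 and Atf4, and their log2 ratios to control lay between -0.09 and 0.23. On the level scale Atf6 was above Atf6b in each library, by 1.98-fold in control, 2.20-fold under low dose and 2.80-fold under high dose.

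Xbp1 (chromosome 11, 5520659 to 5525893, plus strand) encodes the factor that IRE1α activates by splicing. It had the lowest level of the 9 genes in each library, at 0.255 FPKM in control, 0.256 under low dose and 0.211 under high dose, about 19 reads in control, 15 under low dose and 14 under high dose. No more than 2.48% of expressed genes were below it in any library. The stretch that IRE1α removes lies in exon 4 of the 5 exons of the longest reference transcript, at chr11:5524279-5524304, and was found there from its paired cut sites, which 3 of the 4 reference transcripts hold. It is shown with 7 bases on either side, read 5′ to 3′ on the plus strand of GRCm38, and the capitals mark the 26 bases removed.
Xbp1 intron: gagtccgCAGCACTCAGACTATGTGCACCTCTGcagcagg
A length of 26 leaves a remainder of 2 when divided by 3, so removal shifts the reading frame. The deposited value sums over the locus and does not separate spliced from unspliced mRNA, and at these levels few reads would cross the site.

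Ern1, Eif2ak3, Atf6, Atf6b and Xbp1 thus stayed within 1.52-fold between the highest and the lowest library, without any added FPKM. The downstream factors spread more widely. Atf4 differed 5.58-fold and Ddit3 5.47-fold between the highest and the lowest library, and the phosphatase subunits Ppp1r15a and Ppp1r15b 1.88- and 2.85-fold.

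Atf4 (chromosome 15, 80255184 to 80257541, plus strand) encodes the factor whose translation rises when eIF2 is phosphorylated. Its mRNA was at 21.0 FPKM in control, 31.5 under low dose and 5.64 under high dose. It was highest at the low dose and lowest at the high dose. The log2 ratio was 0.56 for the low dose against control, -1.73 for the high dose against control and -2.29 for the high dose against the low dose. In the high dose library 52.4% of expressed genes lay below Atf4, compared with 85.3% in the low dose library and 81.5% in control. About 359 reads stood behind the lowest of these values, so counting error alone is small beside the difference. A level at least 2-fold below both other libraries at the high dose, as Atf4 showed, was found for 2.47% of expressed genes.

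Ddit3 (chromosome 10, 127290774 to 127296288, plus strand) encodes CHOP, a partner of C/EBP factors that is known to favour cell death under lasting stress. It had the highest mean of the 9 genes, and was at 57.8 FPKM in control, 10.6 under low dose and 39.3 under high dose. The low dose library stood lowest, and the high dose library lay between it and control. The log2 ratio was -2.35 for the low dose against control, -0.54 for the high dose against control and 1.80 for the high dose against the low dose. Of expressed genes 92.2% lay below Ddit3 in control, 66.2% under low dose and 88.4% under high dose. About 285 reads stood behind the lowest value. A level at least 2-fold below both other libraries at the low dose was found for 2.49% of expressed genes.

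The reference holds an overlapping gene that is also named Ddit3, and 2 genes on the opposite strand. The strand setting is not given in the sources used here, so reads of overlapping genes cannot be told apart. The 2 genes on the opposite strand were below Ddit3 in each library. Gm4189 was at 2.59 FPKM in control, 1.52 under low dose and 1.19 under high dose, and Mars, which encodes methionyl-tRNA synthetase, at 1.96 FPKM in control, 3.24 under low dose and 3.21 under high dose. Neither passed the 2-fold rule in any comparison.

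Atf4 and Ddit3 stood in different proportions in the 3 libraries. The FPKM of Ddit3 over that of Atf4 was 2.75 in control, 0.34 under low dose and 6.98 under high dose. Ddit3 was thus above Atf4 in control and at the high dose, and below it at the low dose. Neither gene was ordered by dose.

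Ppp1r15a (chromosome 7, 45522916 to 45526268, minus strand) encodes GADD34, the stress-induced subunit that brings protein phosphatase 1 to eIF2. It was at 14.1 FPKM in control, 7.52 under low dose and 9.28 under high dose. Both exposed libraries were below control, with log2 ratios of -0.83 under low dose and -0.56 under high dose, short of the rule. A trimmed mean scaling of the libraries brought the low dose ratio to -1.03, past the rule. Tulp2, which overlaps it on the opposite strand, was below 0.34 FPKM in every library.

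Ppp1r15b (chromosome 1, 133131143 to 133139783, plus strand) encodes CReP, the subunit present without stress. It was at 1.97 FPKM in control, 1.04 under low dose and 2.95 under high dose, and it alone of the 9 genes was listed in several rows. One row gave 1.97 FPKM in control, 0.89 under low dose and 0.72 under high dose and the other 0 FPKM in control, 0.14 under low dose and 2.23 under high dose. Summed, the log2 ratios to control were -0.54 and 0.41. For the high dose against the low dose the log2 ratio was 0.96. The larger row alone gave -0.79 for the high dose against control and -0.14 for the high dose against the low dose, so both directions turned with the way rows were combined. Ppp1r15a exceeded Ppp1r15b by 7.18-fold in control, 7.25-fold under low dose and 3.14-fold under high dose on the level scale. Gm26616, which overlaps Ppp1r15b on the opposite strand, was at 0.18 FPKM in control, 0.65 under low dose and 0.65 under high dose. With the strand setting not given, their reads cannot be told apart.

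The counts were then read against all expressed genes. At the low dose against control 0 of the 7 expressed members were higher and 1, Ddit3, was lower, where 14.5% of all expressed genes lay at least 2-fold higher, 5.84% at least 2-fold lower and 20.4% one or the other. For the high dose against control 0 were higher and 1, Atf4, was lower, against 9.51%, 5.18% and 14.7% of expressed genes. For the high dose against the low dose 1, Ddit3, was higher and 1, Atf4, was lower, against 6.1%, 9.73% and 15.8%. In both comparisons with control, 1 of 7 past the rule in either direction is near the background, and it is no result about the members as a group. For the high dose against the low dose 2 of 7 passed, a larger share than that background, and no test was run on so few genes. Among expressed genes within 2-fold of the mean level of Ddit3, 5.79% were at least 2-fold lower at the low dose than in control, and 5.47% at least 2-fold higher at the high dose than at the low dose. Among those within 2-fold of the mean level of Atf4, 5.75% were at least 2-fold lower at the high dose than in control, and 9.88% at least 2-fold lower at the high dose than at the low dose.

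The median log2 ratio of the 9 genes was -0.23 for the low dose against control, -0.26 for the high dose against control and -0.03 for the high dose against the low dose. The medians of all expressed genes were 0.17, 0.08 and -0.07. The 9 genes include Eif2ak3 and Xbp1, which did not reach the mean of 1 FPKM set for expressed genes, so the sets are unlike. Both comparisons with control used the same control library. Trimmed mean scaling brought the first of these medians of expressed genes to -0.01, and with it the split of expressed genes past the rule at the low dose went to 1353 higher and 951 lower, against 1766 and 710 as deposited. That is 58.7% higher in place of 71.3%.

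**Figure D2:**
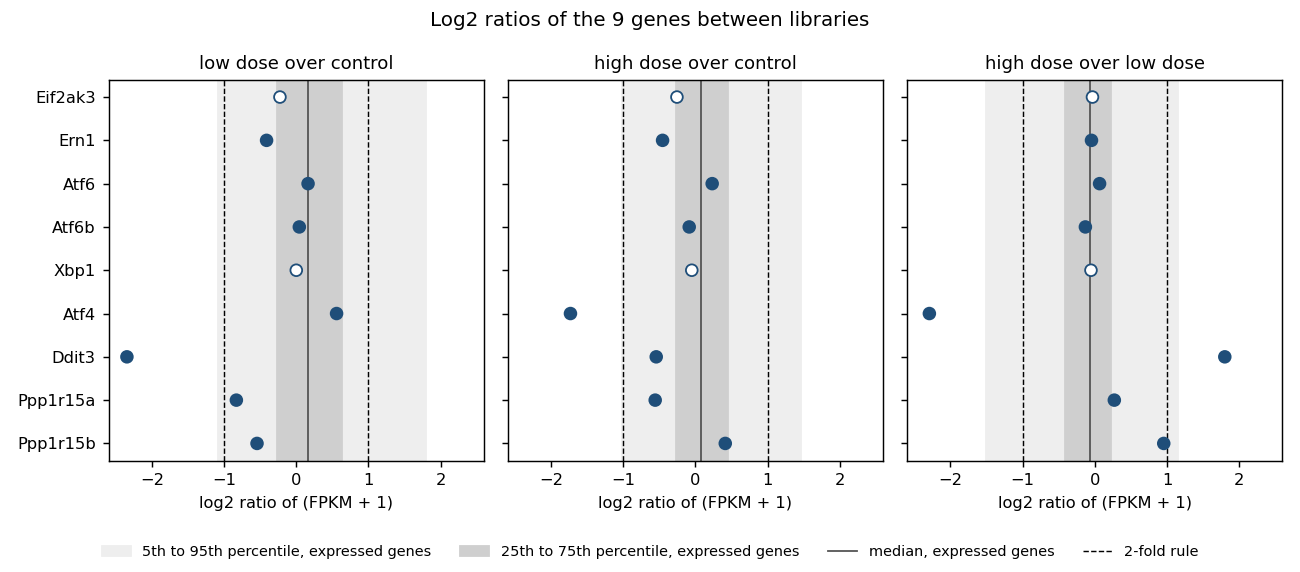
Each point is the log2 ratio of FPKM + 1 for 1 gene in 1 comparison, filled where the gene reached a mean of 1 FPKM and open for Eif2ak3 and Xbp1. Grey bands span the 5th to 95th and the 25th to 75th percentile of 12151 expressed genes, and dashed lines mark the 2-fold rule. Ddit3 at -2.35 and Atf4 at -1.73 lie outside the wider band in the comparisons with control, and both lie outside it for the high dose against the low dose.

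Promoter sequences were available for 7 of the 9 genes, from RefSeq on GRCm38.p6, and those of Atf4 and Ddit3 are shown because these genes differed most. The 250 bases before the RefSeq start site are given 5′ to 3′ on the plus strand, at chr15:80254934-80255183 for Atf4 and at chr10:127290543-127290792 for Ddit3.
Atf4 promoter: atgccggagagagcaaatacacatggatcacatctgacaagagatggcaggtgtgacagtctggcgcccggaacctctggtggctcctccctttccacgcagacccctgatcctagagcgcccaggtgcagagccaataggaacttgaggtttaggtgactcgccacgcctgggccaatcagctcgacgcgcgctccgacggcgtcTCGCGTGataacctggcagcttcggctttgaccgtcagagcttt
Ddit3 promoter: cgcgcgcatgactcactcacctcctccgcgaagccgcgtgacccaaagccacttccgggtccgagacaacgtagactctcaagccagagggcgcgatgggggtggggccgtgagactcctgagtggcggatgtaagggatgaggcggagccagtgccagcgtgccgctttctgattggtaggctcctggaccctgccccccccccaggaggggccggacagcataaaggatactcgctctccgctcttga
The capitals in the Atf4 promoter mark TNGCGTG, the xenobiotic response element (XRE) that the aryl hydrocarbon receptor binds with its partner, at position -44. This motif was in 5.07% of 32851 promoters searched over 300 bases, from 250 before to 50 after the start site. No motif searched for matched the Ddit3 window, which therefore has no capitals. Only matches of every fixed letter were counted, so a site with a differing letter would not appear.

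The other motifs were searched on both strands of the same windows. The ER stress element (ERSE) is CCAAT followed after 9 bases of any kind by CCACG, and pairs a box for NF-Y with a site for ATF6 or XBP1. The variant ERSE-II is ATTGG and CCACG with 1 base of any kind between them, the core of the unfolded protein response element is TGACGTG, and the C/EBP-ATF response element (CARE), which ATF4 binds, is TGATGNAA. ERSE and ERSE-II share CCACG, and TGACGTG shares its last letters, CGTG, with the XRE. None of the 7 members with a promoter sequence held any of these 4 motifs in the window, which says only that these letters are not there.

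Some pathway genes held them. ERSE was in the promoters of 9 of 98 pathway genes with a sequence, and in 0.119% of all promoters. These genes were placed on the lists for their known roles, several of them as targets of ATF6, so the count is a description. For each motif a pathway gene was counted if any of its promoters matched. The share is over single promoters, so the measures are unlike. The matches are shown with 10 bases on either side, turned to the strand that reads CCAAT first, with the motif in capitals and the coordinates and strand on GRCm38.p6.
Hspa5 at chr2:34772015-34772053, plus strand: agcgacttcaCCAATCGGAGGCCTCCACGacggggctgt
Hsp90b1, first match at chr10:86705628-86705666, minus strand: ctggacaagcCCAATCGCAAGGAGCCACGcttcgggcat
Hsp90b1, other match at chr10:86705523-86705561, plus strand: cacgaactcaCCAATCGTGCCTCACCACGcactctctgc
Calr at chr8:84847065-84847103, plus strand: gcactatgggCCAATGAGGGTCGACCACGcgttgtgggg
Canx at chr11:50325790-50325828, minus strand: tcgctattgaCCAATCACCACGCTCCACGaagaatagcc
Pdia6 at chr12:17266481-17266519, plus strand: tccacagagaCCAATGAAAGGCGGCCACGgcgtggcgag
Dnajc3 at chr14:118937817-118937855, plus strand: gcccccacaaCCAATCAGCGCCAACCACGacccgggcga
Creld2 at chr15:88819510-88819548, minus strand: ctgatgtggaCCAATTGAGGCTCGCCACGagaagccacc
Derl3 at chr10:75893232-75893270, minus strand: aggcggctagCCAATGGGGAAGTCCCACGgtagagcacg
Syvn1 at chr19:6046522-6046560, plus strand: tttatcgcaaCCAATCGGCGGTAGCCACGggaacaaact
All 9 genes were expressed, and 8 of them stayed within 2-fold in all 3 comparisons. Of all expressed genes 20.4% were past the rule at the low dose against control and 14.7% at the high dose against control. For the high dose against the low dose the share was 15.8%. The median log2 ratio of these 9 genes with ERSE was 0.15 for the low dose against control and 0.12 for the high dose against control, close to the medians of all expressed genes. Derl3, a subunit of the channel that returns misfolded proteins to the cytosol, was the exception at 12.3 FPKM in control, 2.28 under low dose and 3.45 under high dose, or log2 -2.02 for the low dose and -1.58 for the high dose against control.

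CARE was in 10 of the 98 pathway genes, counted by gene, and in 3.97% of all promoters, counted by promoter. Only 4 of these 10 reached a mean of 1 FPKM. Their matches are shown in the same way, with the motif in capitals on the strand that reads it.
Slc7a11, first match at chr3:50443662-50443689, minus strand: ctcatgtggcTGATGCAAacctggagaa
Slc7a11, other match at chr3:50443643-50443670, plus strand: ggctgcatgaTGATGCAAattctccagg
Nupr1 at chr7:126625563-126625590, plus strand: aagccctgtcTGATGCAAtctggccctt
Txndc5 at chr13:38528912-38528939, plus strand: tcagggggtgTGATGAAAccacttccca
Eif2s3x at chrX:94212730-94212757, plus strand: ggcatagaccTGATGAAAatgatggcga
Of these 4 genes, with rows summed, 2 were higher in each comparison with control, Slc7a11 and Txndc5 at the low dose and Nupr1 and Txndc5 at the high dose. Of all expressed genes 14.5% were higher at the low dose than in control and 9.51% at the high dose. The difference from these shares was not tested. The medians of the 4 genes were 0.74 under low dose and 0.97 under high dose, above the medians of all expressed genes, over 4 genes only. These genes stand on the lists for their known roles, and the values are a description.
ERSE-II was in 2 pathway genes, Herpud1 and Dnajb11, the core TGACGTG in 7 and the XRE in 5, in 0.0365%, 2.01% and 5.07% of all promoters. Of the genes with ERSE-II only Dnajb11, a co-chaperone of BiP named after its values were seen, was expressed, at 15.8 FPKM in control, 6.70 under low dose and 16.9 under high dose (log2 ratio -1.13 for the low and 0.09 for the high dose).

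**Figure D3:**
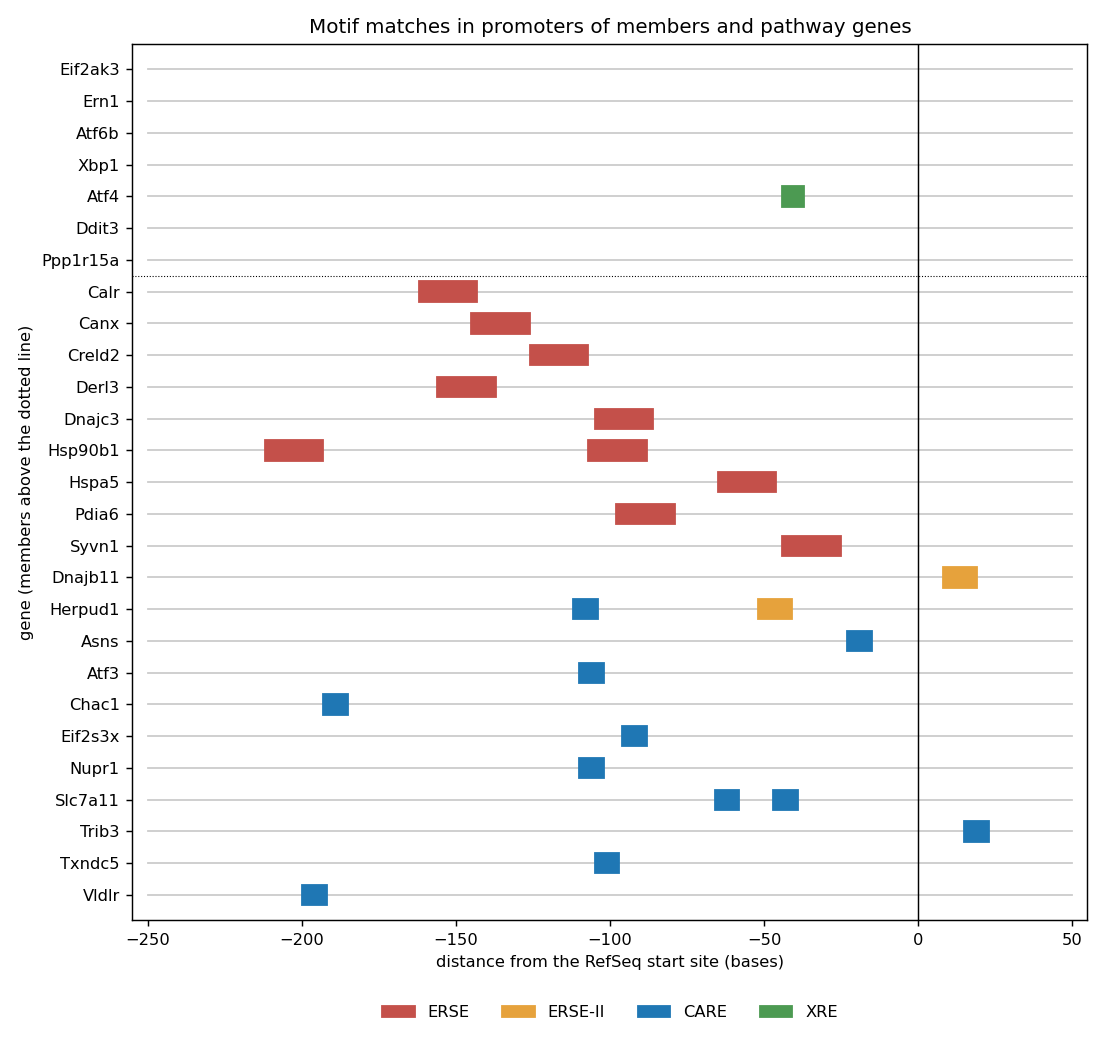
Boxes mark motif matches by distance in bases from the RefSeq start site, for the 7 members above the dotted line and for pathway genes with ERSE, ERSE-II or CARE below it. The XRE match of Atf4 at -44 is the only box among the members.

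The lists around the 9 genes were then read by branch, beside the 20.4% of all expressed genes past the rule under low dose and 14.7% under high dose. Upstream of ATF4, the list of eIF2 kinases, eIF2 and eIF2B subunits and the separate factor eIF2A had 11 of 12 genes expressed. At the low dose 2 of them were higher than in control and 0 lower, and at the high dose 1 was higher and 0 lower. The list median was 0.39 under low dose and 0.10 under high dose. Eif2b3, a subunit of the exchange factor that recharges eIF2, was at 21.6 FPKM in control, 165 under low dose and 113 under high dose. The difference lay in 1 of its 2 rows, at 11.4 FPKM in control, 156 under low dose and 105 under high dose, while the other was at 10.2 FPKM in control, 8.66 under low dose and 7.94 under high dose. Eif2a was at 3.83 FPKM in control, 19.6 under low dose and 5.38 under high dose, again through 1 row of 2, at 1.95 FPKM in control, 17.8 under low dose and 2.81 under high dose. Eif2s2, the beta subunit of eIF2, was at 137 FPKM in control, 179 under low dose and 175 under high dose.

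The other eIF2 kinases did not pass the rule. Eif2ak1, known as the haem-regulated kinase, was at 9.06 FPKM in control, 12.3 under low dose and 10.2 under high dose, and Eif2ak4, the GCN2 kinase that senses uncharged tRNA, at 4.35 FPKM in control, 6.47 under low dose and 4.18 under high dose. Both stood above Eif2ak3 in every library, and Eif2ak2, the kinase that senses double-stranded RNA, stood below it at 0.13 FPKM in control, 0.17 under low dose and 0.32 under high dose. These kinases were named after their values were seen.

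All 5 listed genes for catalytic subunits or other regulators of protein phosphatase 1 were expressed, with a median log2 ratio to control of 0.55 under low dose and 0.33 under high dose. Ppp1cb, a catalytic subunit, was at 10.4 FPKM in control, 182 under low dose and 19.9 under high dose, a log2 ratio of 4.01 for the low dose against control. Of this 179 FPKM came from 1 row that was at 8.13 FPKM in control, and the other row was at 3.32 FPKM at the low dose and 2.23 FPKM in control. It alone of the 5 passed the rule at the low dose, and none passed at the high dose. Ppp1r7 was at 27.3 FPKM in control, 29.1 under low dose and 18.6 under high dose.

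Of 26 listed targets and partners of ATF4 and CHOP, 24 had a row and 13 of these were expressed. That share, 54.2%, compares with 52% of all gene names. At the low dose 1 was higher and 0 lower, at the high dose 2 were higher and 0 lower, and the medians were 0.20 and 0.17. Slc7a11, the cystine transporter, was at 6.05 FPKM in control, 14.4 under low dose and 12.5 under high dose over 5 rows (log2 ratio 1.13 for the low and 0.93 for the high dose). Slc7a1, a transporter of cationic amino acids, was at 0.86 FPKM in control, 2.7 under low dose and 2.99 under high dose (log2 ratio 0.99 for the low and 1.10 for the high dose), and Nupr1, a stress-induced chromatin protein, at 0.88 FPKM in control, 0.79 under low dose and 2.79 under high dose (log2 ratio -0.07 for the low and 1.01 for the high dose). The larger row of Slc7a1 was at 0.86 FPKM in control, 2.05 under low dose and 1.42 under high dose. Its other row was at 0 FPKM in control, 0.65 under low dose and 1.56 under high dose. Nupr1 also had 2 rows. One was at 0.20 FPKM in control, 0 under low dose and 1.82 under high dose, and the other at 0.68 FPKM in control, 0.79 under low dose and 0.98 under high dose. Mthfd2, a mitochondrial folate enzyme, was at 22.3 FPKM in control, 22.1 under low dose and 20.6 under high dose, and Cth, which makes cysteine, at 12.2 FPKM in control, 13.0 under low dose and 9.22 under high dose.

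Several classical targets, among them Asns, Chac1, Trib3 and Atf3, stayed under 1 FPKM in all 3 libraries, and they are named after their values were seen. Asns, asparagine synthetase, was at 0.71 FPKM in control, 0.29 under low dose and 0.37 under high dose, and Chac1, which degrades glutathione, at 0.53 FPKM in control, 0.80 under low dose and 0.09 under high dose. Trib3, a pseudokinase induced by CHOP, was at 0.024 FPKM in control, 0 under low dose and 0.15 under high dose, and Atf3 at 0.29 FPKM in control, 0.29 under low dose and 0.14 under high dose. Bbc3, which encodes the death factor PUMA and is likewise named afterwards, was listed at 0 in control and at the low dose and at 1.19 FPKM at the high dose.

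On the ATF6 branch, the 7 expressed genes among the proteases, related membrane factors and NF-Y subunits held 0 past the rule in either comparison with control. Their medians were 0.10 at the low dose, which trimmed mean scaling turned to -0.08, and -0.29 at the high dose. Creb3l4, a membrane-bound factor related to ATF6, was at 21.3 FPKM in control, 16.1 under low dose and 14.0 under high dose, above Atf6 itself in each library. Nfyb, a subunit of the CCAAT-binding factor, was at 11 FPKM in control, 12.5 under low dose and 11.1 under high dose. On the IRE1 branch, 5 partners were expressed and 0 passed the rule, with medians of 0.18 under low dose and 0.14 under high dose. Tmbim6, an ER membrane protein known as a brake on IRE1α, was at 58.0 FPKM in control, 48.6 under low dose and 48.2 under high dose, and Rnf185, a ubiquitin ligase of the ER, at 17.9 FPKM in control, 36.3 under low dose and 23.4 under high dose. Rtcb, the ligase that rejoins Xbp1 mRNA, named after its values were seen, was at 8.10 FPKM in control, 4.24 under low dose and 3.94 under high dose.

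Of 20 expressed chaperones and folding enzymes, the low dose had 2 higher and 3 lower than control, and 1 was higher and 1 lower at the high dose. That is 25% past the rule under low dose and 10% under high dose, beside 20.4% and 14.7% of all expressed genes. The medians were 0.16, which became -0.05 under trimmed mean scaling, and 0.12. Hspa5, the chaperone BiP that holds the sensors inactive, also named after its values were seen, was at 31.9 FPKM in control, 41.7 under low dose and 45.3 under high dose (log2 ratio 0.38 for the low and 0.49 for the high dose). Fkbp2 and Creld2, the most abundant of the list, were at 160 FPKM in control, 183 under low dose and 188 under high dose and at 162 FPKM in control, 139 under low dose and 147 under high dose.

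Single folding genes differed by more. Txndc5, a thioredoxin-like enzyme, was at 1.05 FPKM in control, 4.81 under low dose and 21.5 under high dose (log2 ratio 1.5 for the low and 3.46 for the high dose). Sdf2l1, a partner of BiP, was at 8.39 FPKM in control, 1.87 under low dose and 2.28 under high dose (log2 ratio -1.71 for the low and -1.52 for the high dose). Ero1l, the oxidase that drives disulfide formation, was at 6.18 FPKM in control, 1.70 under low dose and 3.62 under high dose (log2 ratio -1.41 for the low and -0.64 for the high dose). Uggt1, which tests glycoproteins for folding, was at 1.5 FPKM in control, 6.40 under low dose and 2.26 under high dose over 4 rows (log2 ratio 1.56 for the low and 0.38 for the high dose). All 4 rows were higher at the low dose than in control. The row highest in control was at 0.72 FPKM there, 1.25 under low dose and 1.28 under high dose.

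Of 16 expressed genes of ER-associated degradation, the low dose had 3 higher and 2 lower than control, and 2 were higher and 1 lower at the high dose. That is 31.2% past the rule under low dose and 18.8% under high dose, beside 20.4% and 14.7% of all expressed genes. The medians were 0.01 and 0.22, and the first turned to -0.20 under trimmed mean scaling. Derl2 was at 10.8 FPKM in control, 97.8 under low dose and 192 under high dose, of which 1 row held 6.99 FPKM in control, 96.4 under low dose and 188 under high dose. Its relative Derl3 was lower in both exposed libraries, as given above. Ube2g2, a conjugating enzyme of this route, was at 4.00 FPKM in control, 18.5 under low dose and 15.6 under high dose (log2 ratio 1.96 for the low and 1.73 for the high dose). Nploc4, which recruits the ATPase p97 to ubiquitin, was at 7.44 FPKM in control, 0.082 under low dose and 8.39 under high dose (log2 ratio -2.96 for the low and 0.15 for the high dose), so it shared with Ddit3 a low value in the low dose library. Os9, a lectin of the same route, was at 19.1 FPKM in control, 18.0 under low dose and 15.5 under high dose.

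**Figure D4:**
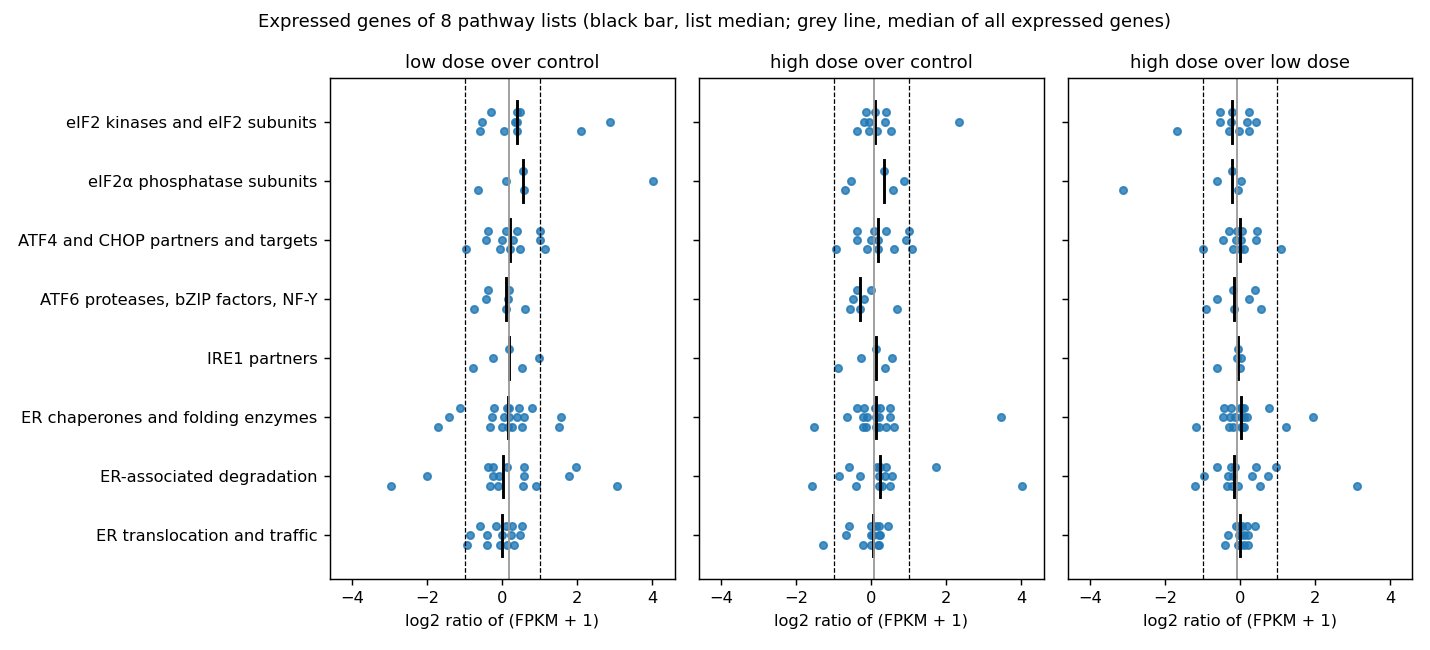
Each point is the log2 ratio of FPKM + 1 for 1 expressed gene of a list, black bars are list medians, grey lines the median of all expressed genes and dashed lines the 2-fold rule. Most points lie between the dashed lines, and Ppp1cb at 4.01 and Derl2 at 4.03 are the farthest to the right in the comparisons of low and high dose with control.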

How the data were processed

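Total RNA of oocytes was sequenced in 3 libraries, with 1 library per group by the exposure label. Each library has a table of FPKM that the authors deposited, named so in the file headers. Per the submitters' processing notes HISAT2, StringTie and the build mm10 were used, with versions, annotation and strand setting not given in the sources used here. Rows were joined by identifier (43346 in all) and rows absent from a table were taken as 0. A set of 61 identifiers whose names differed between tables and 12426 rows without a name were left out. FPKM was summed per gene name, and 1 FPKM was added before log2 ratios. Genes averaging 1 FPKM or more were called expressed.

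Depth came from reference genes with 1 transcript, whose FPKM times length crowds at the worth of 1 read. Within 0.05 of 1, 2 or 3 reads lay 337 such values in control, 188 under low dose and 249 under high dose, against 37, 26 and 41 within 0.05 of 1.5, 2.5 or 3.5 reads. Reads per gene used the longest transcript of GENCODE M21 on GRCm38, which may not be the assembled one. Depth covers counting error only.

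The members, gene lists, markers and motifs were chosen with earlier results of these data known. Named genes were all members and, per list, up to 4 genes past the 2-fold rule against control and the 2 most abundant. Others are stated as named after their values were seen. Values were computed in Python 3.11.15 with pandas 2.3.3, and the rule and the scaling were tested on simulated data. Alternatives were other pseudocounts, scalings, filters, thresholds and ways to combine rows.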

Additional observations from a re-analysis of the deposited data

How the results depend on the processing

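Ddit3 at the low dose and Atf4 at the high dose passed the 2-fold rule against control under each pseudocount and scaling that was tried. Each of these genes has 1 row, so the ways to combine rows could not change its ratios. Of 189 log2 ratios of the members under the pseudocounts, scalings and ways to combine rows, 173 kept their direction and their side of the rule. Many could not move, since only Ppp1r15b had several rows and a pseudocount cannot turn a direction. The count of 173 is therefore no measure of robustness. The count of members lower at the low dose than in control became 2 under median ratio scaling, trimmed mean scaling and a 1.5-fold rule, where Ppp1r15a joined Ddit3. The count of members higher at the high dose than at the low dose became 2 with a pseudocount of 0.1 FPKM, with median ratio scaling and with a 1.5-fold rule, where Ppp1r15b joined Ddit3. With only the largest row of each gene this Ppp1r15b ratio turned to -0.14, against 0.96 with rows summed. Counts over all expressed genes moved with the threshold and the floor. For the low dose against control they were 788 higher and 269 lower with a pseudocount of 5 FPKM, 968 and 373 over genes averaging 5 FPKM or more, 3261 and 1555 with a 1.5-fold rule, and 814 and 301 with a 3-fold rule. For the high dose against control they were 510 and 263, 647 and 343, 2354 and 1488, and 516 and 284 in the same order, and 1021 were lower with a pseudocount of 0.1 FPKM. For the high dose against the low dose they were 303 and 519, 340 and 611, 1400 and 2228, and 367 and 556. Depth limits Xbp1 most, at 14 to 19 estimated reads. No paired analysis was possible because each group had 1 library. With 1 library per group no replicate could be left out.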

Other observations

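Of 15 expressed genes of ER translocation and traffic, 0 were higher or lower at the low dose than in control, and 1 was lower at the high dose. These counts stand beside 20.4% and 14.7% of all expressed genes past the rule, and the difference from them was not tested. The medians were -0.01 and 0.04. Trimmed mean scaling turned the second to -0.06. Sec61g, a subunit of the channel through which nascent chains enter the ER, was at 244 FPKM in control, 235 under low dose and 244 under high dose. Sec62, an accessory factor of that channel, was at 133 FPKM in control, 165 under low dose and 152 under high dose. Spcs1, a subunit of the signal peptidase, was at 114 FPKM in control, 58.7 under low dose and 46.5 under high dose, or log2 -0.95 for the low dose and -1.28 for the high dose against control. Ssr4, a subunit of the translocon-associated complex, was at 12.6 FPKM in control, 6.49 under low dose and 7.55 under high dose, and Ssr2, of the same complex, at 14.6 FPKM in control, 9.27 under low dose and 9.28 under high dose. Neither passed the rule, and both were named after their values were seen.

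Of 6330 genes averaging 5 FPKM or more, those nearest to Ddit3 in the pair of log2 ratios to control, by Euclidean distance over 3 libraries, were C430002N11Rik (distance 0.09), Stk36 (0.11) and Tcl1b2 (0.14). Tcl1b2, of the Tcl1 gene cluster, was at 205 FPKM in control, 37.9 under low dose and 154 under high dose. Within a distance of 0.25 of Ddit3 lay 4 genes. The genes nearest to Atf4, looked up after its values were seen, were Atp6ap2 at 9.12 FPKM in control, 13.8 under low dose and 2.13 under high dose (0.04), Hps3 (0.11) and Hmgcs1 (0.12). Hmgcs1, an enzyme of cholesterol synthesis, was at 77.2 FPKM in control, 123 under low dose and 23.5 under high dose, and 6 genes lay within 0.25 of Atf4.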
